A study of Mus musculus with 18 samples.

Results

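Mouse bone marrow-derived macrophages (BMDMs) that had been given apoptotic cells (ACs) were compared with BMDMs left without added cells, both labelled with the control genotype. The 6 libraries were chosen by their sample titles, 3 labelled WT with ACs and 3 labelled WT without treatment, out of 18 libraries in the series. The methods of the study describe the mice under this label as HDAC3 f/f, that is C57BL/6J animals with loxP sites on both sides of an exon of Hdac3 and no Cre, and the sources used here give no age for them. Marrow from femurs was differentiated in medium conditioned by L929 fibroblasts, with 3 animals per group. K562, a leukemia line of human origin, served as ACs after 15 min of UV-B irradiation and 2 h of rest. Macrophages were cocultured with them for 45 min, washed and kept for 5 h before RNA extraction, whereas untreated macrophages received no cells. The remaining 12 libraries, used here only for side-by-side values, were macrophages labelled WT with non-apoptotic K562 cells (NACs) and HDAC3-/- macrophages under the same 3 conditions, in which Cre is driven by the Lyz2 (LysM) locus.

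Macrophages clear dying cells by efferocytosis. Bridging proteins such as Gas6, Pros1 and Mfge8 coat phosphatidylserine on the dying cell, receptors such as Mertk, Axl, Cd36 and Lrp1 bind it, and the engulfed body is digested in an acid compartment. The meal brings in cholesterol, fatty acids, nucleotides and amino acids, and macrophages are known to answer it through liver X receptor (LXR) targets that export cholesterol, through glucose uptake and glycolysis, through polyamine synthesis from arginine, and by damping inflammatory genes. The comparison therefore asks which of these programs differed in RNA level 5 h after the meal.

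Total counts per library were 12781394 to 18026031 in untreated macrophages and 9385094 to 14929827 in ACs-treated macrophages. A gene without a count may still have a level of up to 3 counts, or 0.166 to 0.32 CPM (the CPM unit is a count scaled to the library total), by counting error alone. Levels below are CPM scaled by the TMM factors of edgeR, and log2 fold changes are ACs minus untreated with the standard error (SE) of the fit, on 3 libraries a group. Replicates of a group correlated at 0.928 to 0.976 across genes on log2 CPM, and libraries of different groups at 0.895 to 0.974, with the highest value between the replicate 1 libraries. All 12 macrophage markers examined were detected in each group, among them Csf1r, the receptor for the main macrophage growth factor, at 1435 to 2284 CPM untreated and 1638 to 2627 CPM with ACs.

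The replicate 1 library stood apart in both groups. Hdac3, the gene floxed in these mice, was at 4.04, 54.4 and 34.3 CPM in untreated replicates 1, 2 and 3 and at 8.32, 41.5 and 30.8 CPM with ACs. The 2 replicate 1 libraries were therefore lowest, although the label gives both as WT, and over the whole series Hdac3 was at 3.66 to 67.2 CPM of the library total in libraries labelled WT and at 4.85 to 59.1 in those labelled KO. A count over the whole gene does not show whether the floxed exon was present, and whether every library has the genotype of its label was not tested, so WT and KO are used here as labels. Cd5l, a secreted scavenger protein of macrophages, followed the same order, at 17.3, 233 and 159.7 CPM untreated and 24.1, 180.4 and 125 CPM with ACs. Apoe, the apolipoprotein that carries cholesterol out of macrophages, went the other way, at 58570, 15260 and 11750 CPM untreated and 34830, 13040 and 12840 CPM with ACs. At 276 of 12199 genes both replicate 1 libraries were over 2-fold below the other 4, and at 55 genes over 2-fold above them. The corresponding counts were 12 and 7 genes for replicate 2, and 11 and 3 for replicate 3. Hdac3 and Cd5l themselves did not differ between the groups beyond their spread (log2 fold change -0.20 ± 0.97 and -0.31 ± 1.07, edgeR adjusted p = 0.924 and 0.89). Results are given below with all 6 libraries, and calls by edgeR without replicate 1 are given where that setting made one. These same values set replicate 1 apart, so such calls are not independent support. Leaving out replicate 2 or replicate 3 of both groups gave 0 calls by edgeR.

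**Figure D1:**
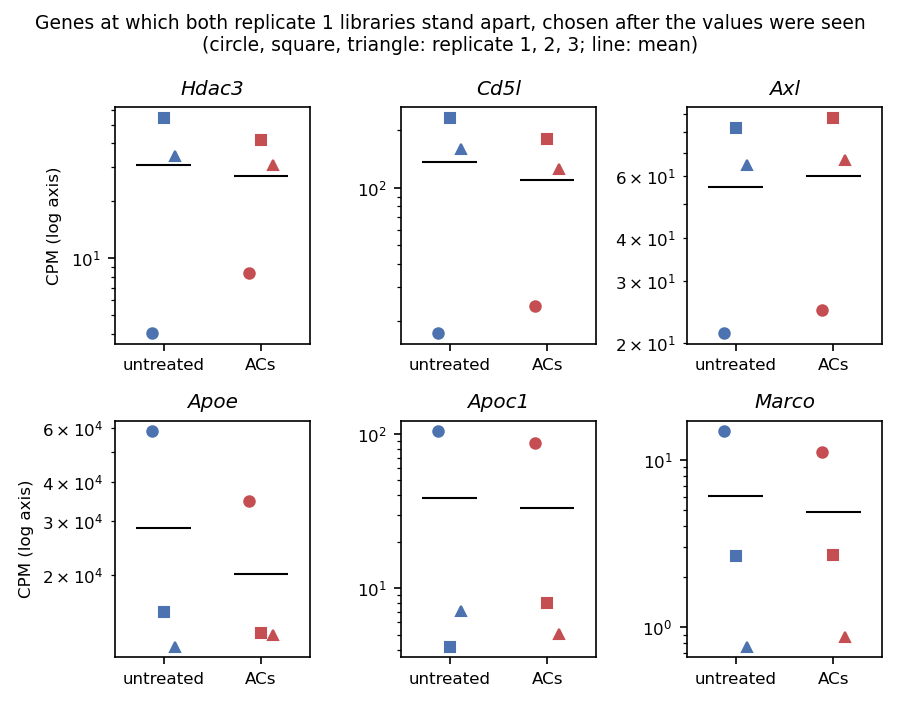
CPM on a log axis of 6 genes in each library, untreated (blue) and ACs-treated (red), with the mean as a line. Circles, replicate 1, are lowest for Hdac3, Cd5l and Axl and highest for Apoe, Apoc1 and Marco in both groups, and the genes were chosen after their values were seen.

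Of 12199 genes tested, 0 (0%) passed edgeR's quasi-likelihood test at an adjusted p under 0.05, and the smallest adjusted p was 0.39. At an unadjusted p under 0.05, 880 genes (7.21%) were higher and 671 (5.5%) lower with ACs. With the size factors of DESeq2 that split was 1214 higher and 465 lower, and the median log2 fold change of all genes moved from -0.11 to -0.01 (-0.18 with library totals alone). The 3 ACs-treated libraries all lay above the 3 untreated ones at 909 genes (7.45%) and all below them at 1158 genes (9.49%). limma-voom called 0 genes, with 1968 at an unadjusted p under 0.05, and the Wald test of DESeq2 called 5 (0.041%), 3 higher and 2 lower. Without replicate 1 in both groups, edgeR called 92 of 12450 genes (0.739%), 35 higher and 57 lower. The smallest adjusted p in that setting was that of Cldn5, a tight junction protein (log2 fold change 4.54, adjusted p = 5.338e-06), and Fhl1, Slc9a3r2, Tjp1, Nfib and Ptprf were also called as higher (2.74 to 3.26). Of the lower calls, the protein-coding genes with the smallest adjusted p were Tmed5, of the p24 family of secretory cargo receptors (-1.95, adjusted p = 0.00298), and Hpgd. Cldn5 was at 1.03, 0.254 and 0.177 CPM untreated and 0, 0.762 and 8.88 CPM with ACs, and Nfib, a transcription factor, at 4.04, 2.03 and 1.36 CPM against 1.71, 2.29 and 23.7 CPM. In all 6 of these genes, chosen after their values were seen, ACs-treated replicate 3 was the highest of the 6 libraries, and with all of them the groups overlapped.

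Among protein-coding genes Hpgd had the smallest edgeR p with all 6 libraries and no offset. It encodes the dehydrogenase that inactivates prostaglandin E2 and other lipid mediators (chr8:56294585-56321043, GRCm38, plus strand). Hpgd was at 19.96, 33.5 and 20.3 CPM in untreated macrophages and at 8.56, 6.86 and 6.66 CPM after ACs, so every treated library lay under every untreated one. The group means were 24.6 ± 7.74 and 7.36 ± 1.05 CPM (SD), a log2 fold change of -1.74 ± 0.33. Its edgeR adjusted p was 0.393, whereas Hpgd was among the genes called by the Wald test of DESeq2 (adjusted p = 0.0144) and by edgeR without replicate 1 (-1.90, adjusted p = 0.00456). When gene GC content and length entered the fit as an offset, the log2 fold change was -1.06, in the same direction. Under that offset Hpgd no longer ranked first, and Pcx, Pts and Trim12c, described next, had smaller unadjusted edgeR p-values.

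The other protein-coding genes with the smallest p-values had smaller absolute log2 fold changes than Hpgd without the offset. Trim12c, a member of the tripartite motif family with a close paralogue that could share its reads, was at 22.7, 23.6 and 16.0 CPM untreated and 7.34, 6.10 and 8.68 CPM with ACs (log2 fold change -1.49 ± 0.32, and -0.93 with the GC and length offset). Pts, which makes the tetrahydrobiopterin precursor needed by nitric oxide synthase, was at 12.4, 14.3 and 17.2 CPM untreated and 5.51, 5.06 and 6.39 CPM with ACs (-1.37 ± 0.32, and -1.03 with the offset). Pcx, pyruvate carboxylase, which feeds the citric acid cycle, went the other way, at 2.54, 2.98 and 5.77 CPM untreated against 9.66, 15.7 and 10.2 CPM (1.65 ± 0.40, and 1.19 with the offset). None of these 3 passed edgeR's test (adjusted p = 0.393 each), and their groups did not overlap. Without replicate 1, Pcx passed edgeR's test (1.59, adjusted p = 0.0399), while Trim12c and Pts did not (adjusted p = 0.0682 and 0.0663).

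**Figure D2:**
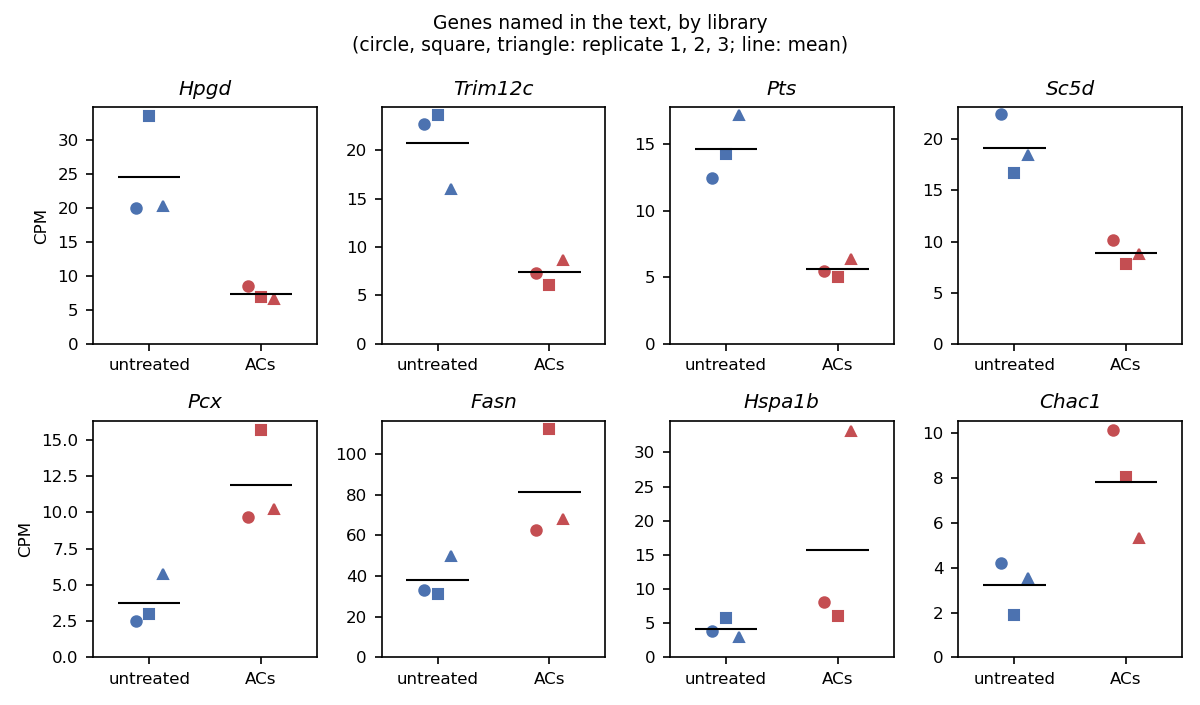
CPM of 8 genes in each of the 6 libraries, untreated (blue) and ACs-treated (red), with the mean of each group as a line. The groups do not overlap at any of the 8, and at Hspa1b the difference of the means rests on 1 library at 33.2 CPM.

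Noncoding genes and pseudogenes filled most other places among the 6 smallest p-values in each direction. Rps19-ps6, a processed pseudogene of a ribosomal protein gene on chromosome 12, was at 10.3, 7.10 and 7.77 CPM untreated and 34.4, 28.6 and 27.1 CPM with ACs (log2 fold change 1.84 ± 0.30), and passed the Wald test of DESeq2 (adjusted p = 4.779e-05). Gm4366 (1.81 ± 0.36) and the antisense transcript 9430060I03Rik (1.596 ± 0.335) were also called by DESeq2, at adjusted p = 0.0122 and 0.0226. Gm8730, another pseudogene, had a log2 fold change of 1.49 ± 0.35, and the antisense transcript 3010003L21Rik one of 1.71 ± 0.39 (1.05 with the GC and length offset), with DESeq2 adjusted p = 0.0909 and 0.0842. Without replicate 1, edgeR called all 5 of these genes as higher, with adjusted p = 0.00282 for Rps19-ps6, 0.0163 for Gm4366, 0.0328 for 9430060I03Rik, 0.0174 for Gm8730 and 0.036 for 3010003L21Rik. Reads of pseudogenes can come from their parent genes, and the strand setting of the counting is not given in the sources used here, so they are uncertain. The paper states that aligning to mouse alone minimized reads of ingested human K562 RNA. Whether such reads add to these genes was not tested. With NACs against untreated, Rps19-ps6, Gm4366 and Gm8730 were at 1.16, 1.97 and 2.56, and 9430060I03Rik and 3010003L21Rik at 0.83 and 1.42. On the low side, mt-Te, the mitochondrial tRNA for glutamate, was at 9.43, 8.17 and 5.48 CPM untreated and 2.45, 0.97 and 0.942 CPM with ACs (-2.45 ± 0.48, DESeq2 adjusted p = 0.0122, and edgeR adjusted p = 0.00154 without replicate 1). The lincRNA 1110019D14Rik had 25, 22 and 35 counts untreated and 1, 2 and 1 counts with ACs. The transcript 2010001A14Rik was lower by less (-1.86 ± 0.46), and neither passed this test (edgeR adjusted p = 0.393). Without replicate 1, edgeR called 1110019D14Rik (adjusted p = 0.0281).

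Genes were then grouped into 23 lists by pathway. Counts of higher and lower genes below go by the sign of the log2 fold change and stand beside 5367 higher and 6826 lower of all genes tested. Shares of genes without overlap stand beside 7.45% above and 9.49% below for all genes tested, or 24.1% and 32.4% without replicate 1. In that setting, with 2 libraries a group, several genes separated that overlapped in 6 libraries. Among them Nr1h2, Jund, Ier3, Tfeb, Tfe3, Keap1, Slc7a5, Hsf1, E2f1, Plk1, H2-DMb1, Rela, Relb, Tnf and Tgfb1 were above, and Ifit1, Rpl11, Neat1, Cd36, Il10, Sat1, Sms and Azin1 below. No list held a gene called by edgeR with the filter and no replicate block in all 6 libraries, against 0% of all genes tested. The lists with the highest median log2 fold change were glycolysis and lactate transport (0.39), ATF4 and the unfolded protein response (0.31) and arginine and polyamine metabolism (0.26), and those with the lowest were the mitochondrially encoded proteins (-0.57), cytosolic ribosomal proteins (-0.38), and alternative activation and tissue macrophage genes and noncoding and nuclear-retained RNAs (-0.37 each), beside -0.11 for all genes tested. Both GC content and mitochondrial share moved with the groups. The count-weighted GC content of genes was 52.1% to 52.7% untreated and 52.8% to 54.4% with ACs, and the share of counts on mitochondrial genes was 0.496% to 0.621% and 0.341% to 0.48%. An offset for GC content and length left glycolysis at 0.33, polyamine metabolism at 0.22, the ATF4 list at 0.18 and ribosomal proteins at -0.35, and turned the mitochondrially encoded proteins to 0.12.

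**Figure D3:**
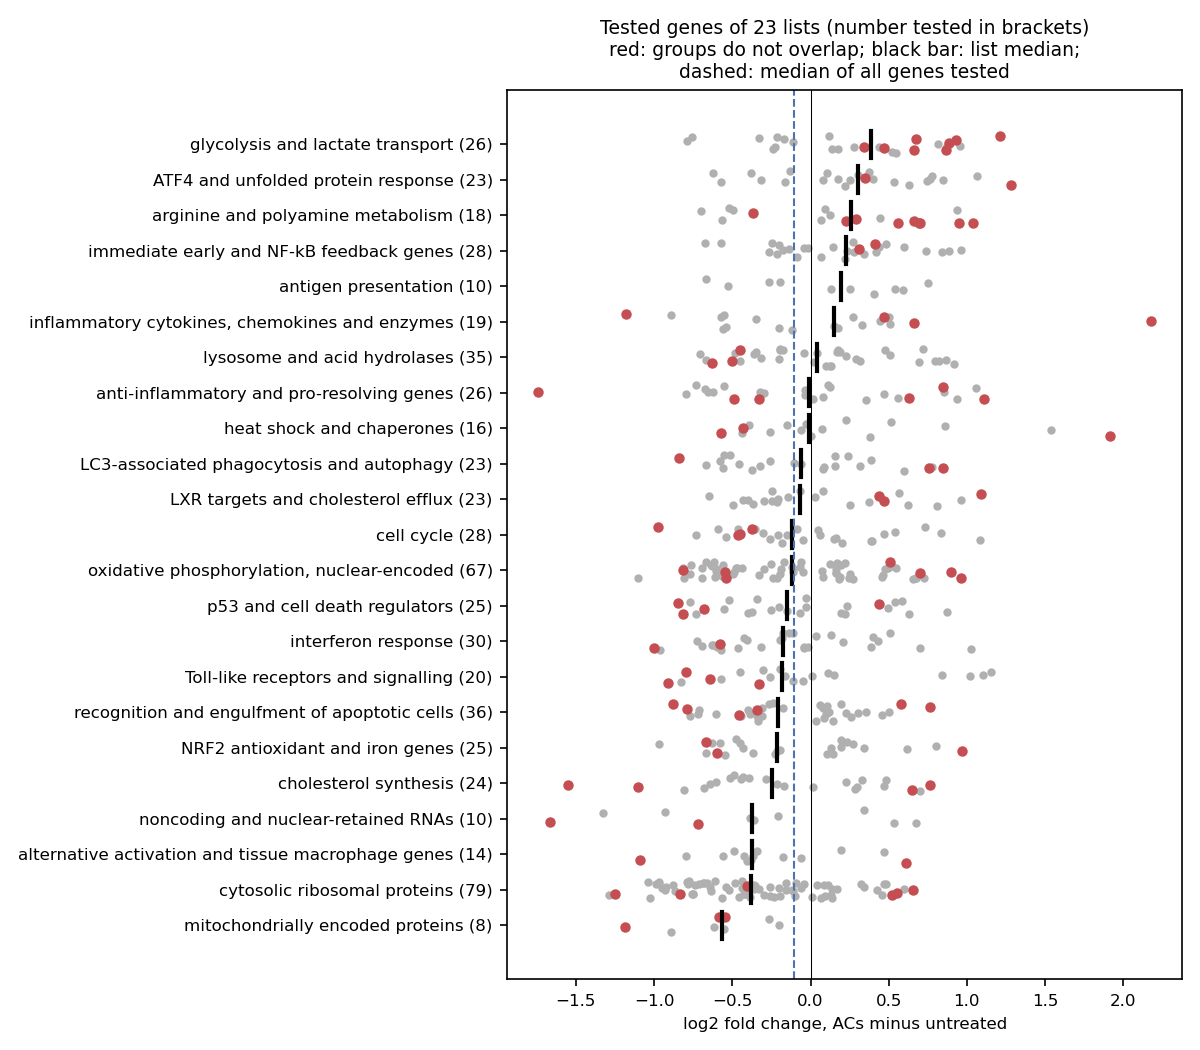
Log2 fold change, ACs minus untreated, of every tested gene of the 23 lists, with list medians as black bars, genes whose groups do not overlap in red and the median of all genes tested (-0.11) as a dashed line. Glycolysis has the highest median (0.39) and the mitochondrially encoded proteins the lowest (-0.57), and every other list has genes on both sides of 0.

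In glycolysis and lactate transport, 18 of 26 tested genes were higher and 8 lower. At 8 genes (30.8%, beside 7.45% of all genes tested) every ACs-treated library lay above every untreated one, and at 0 genes every one lay below. Hk2, the hexokinase that traps glucose in the cell, had the smallest p of the list, at 172.5, 345 and 203 CPM untreated and 427, 819.6 and 427 CPM with ACs. Its log2 fold change was 1.21 ± 0.39 (edgeR adjusted p = 0.393), and 1.08 with the GC and length offset. Pfkl, the liver type subunit of phosphofructokinase, was at 120.2, 75.8 and 120.1 CPM untreated and 159.8, 241 and 175 CPM with ACs (0.87 ± 0.32). Slc16a3, which exports lactate, was at 85.2, 89.0 and 141 CPM against 142.9, 257 and 182 CPM (0.88 ± 0.34). Gapdh was at 2491, 2123 and 4300 CPM against 5513, 6740 and 4769 CPM (0.93 ± 0.40). The treated groups lay above in all 4 genes, with the narrowest gap in Gapdh and Slc16a3, where untreated replicate 3 was close to the lowest treated library. The remaining genes without overlap were Pfkm, Eno1, Hk1 and Pfkp, with log2 fold changes of 0.34 to 0.68. The glucose transporter genes Slc2a1 and Slc2a3 were at -0.17 ± 0.32 and -0.76 ± 0.48, with overlapping groups. With the GC and length offset, Pfkl, Slc16a3 and Gapdh were at 0.36, 0.34 and 0.65. Without replicate 1, 14 genes lay above and 3 below without overlap, a count added after the data were seen, beside 24.1% and 32.4% of all genes.

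The region before the start site of Hk2 is shown because ACGTG, the core letters bound by hypoxia-inducible and E-box factors, occurs there. The sequence is from RefSeq (GRCm38.p6, chr6:82774455-82774704, minus strand, printed 5′ to 3′, 250 bases), and capitals mark the letters CACGT, which are ACGTG read on the opposite strand, 226 and 52 bases before the start site.
Hk2: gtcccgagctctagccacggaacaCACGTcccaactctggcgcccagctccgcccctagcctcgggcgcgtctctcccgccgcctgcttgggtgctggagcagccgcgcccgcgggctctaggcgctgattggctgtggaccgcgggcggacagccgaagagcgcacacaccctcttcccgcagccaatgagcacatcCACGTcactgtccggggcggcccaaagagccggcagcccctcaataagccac
Searched on both strands of windows of 300 bases around start sites, ACGTG was in 13 of the 25 glycolysis genes with a promoter in that table (52.0%), in 26.1% of the 9119 tested genes with one, and in 19.6% of all 32851 promoters. It overlaps the longer E-box CACGTG, and a match describes letters and not a bound site.

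Of the 23 lists, arginine and polyamine metabolism had the largest share of genes without overlap on the high side. Of 18 tested genes, 13 were higher and 5 lower, and at 8 (44.4%, beside 7.45% of all genes) every treated library lay above every untreated one. The reverse held at 1 (5.56%, beside 9.49%), Oaz2, an antizyme gene. Srm, spermidine synthase, was at 22.02, 26.7 and 46.1 CPM untreated and 47.8, 80.6 and 66.5 CPM with ACs (log2 fold change 1.04 ± 0.35). Paox, which oxidizes acetylated polyamines, was at 18.0, 17.4 and 31.4 CPM against 34.5, 50.4 and 44.1 CPM (0.95 ± 0.33). Both have edgeR adjusted p = 0.393, and with the GC and length offset Srm was at 0.55 and Paox at 0.96. Smox, spermine oxidase, was at 0.70 ± 0.32, and Dohh and Dhps, which turn spermidine into the hypusine of translation factor eIF5A, were at 0.69 ± 0.32 and 0.56 ± 0.31. With the same offset these 3 were at 0.18, 0.09 and 0.40. The first enzyme of the pathway, Odc1, was at 19.6, 28.1 and 41.6 CPM untreated and 33.5, 30.2 and 30.0 CPM with ACs, so its groups overlapped (0.07 ± 0.32). Sat1, Sms and Azin1 had negative log2 fold changes of -0.70, -0.52 and -0.49 with overlapping groups. Without replicate 1, 9 genes lay above and 4 below without overlap, beside 24.1% and 32.4% of all genes.

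**Figure D4:**
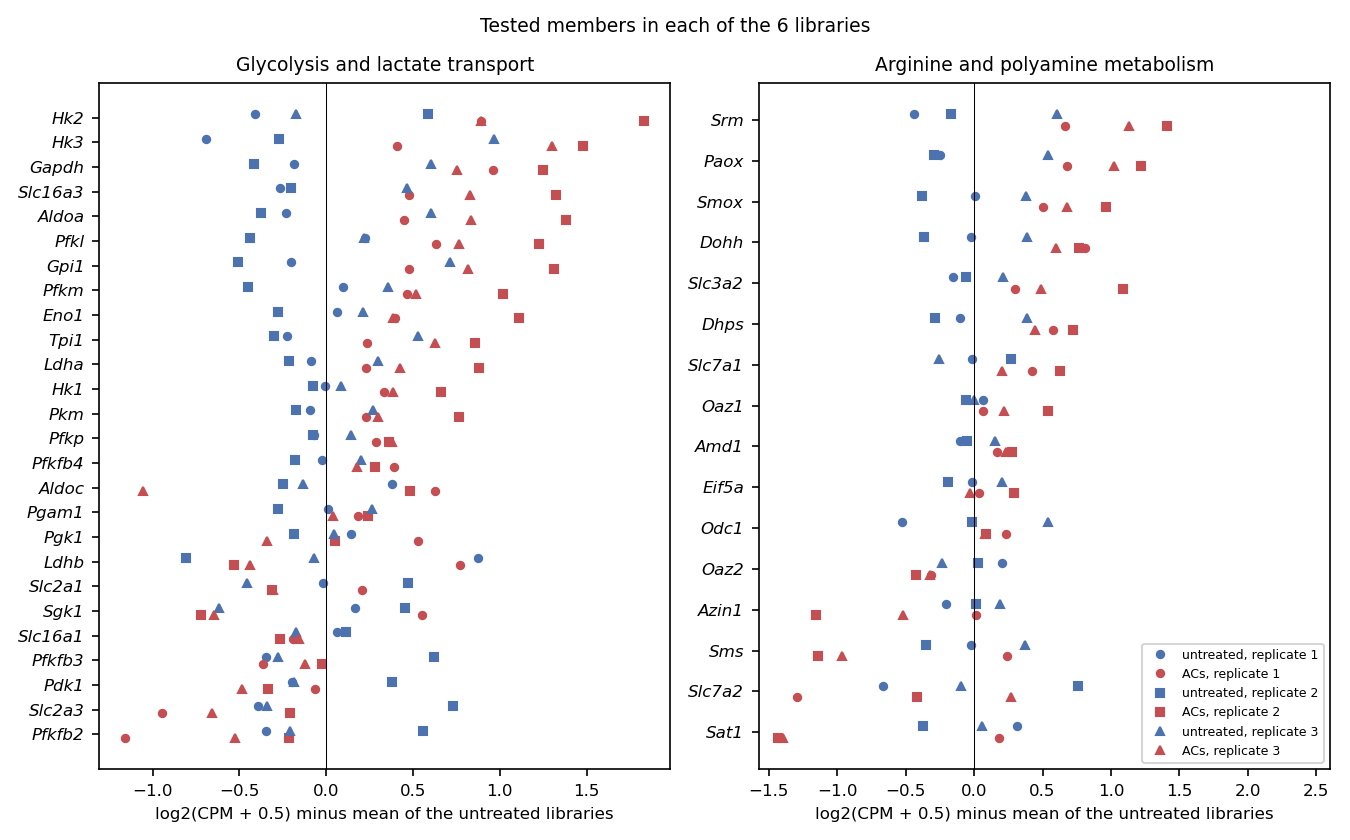
Tested genes of 2 lists in each library, as log2(CPM + 0.5) minus the mean of the untreated libraries, untreated in blue and ACs-treated in red, with replicates as circles, squares and triangles. At Hk2, Gapdh, Srm and Paox the red symbols all lie to the right of the blue ones.

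In the ATF4 and unfolded protein response list, which holds genes of the amino acid and endoplasmic reticulum stress responses, 17 of 23 tested genes were higher and 6 lower, 2 of them without overlap on the high side (8.7%) and 0 on the low side. Chac1, which degrades glutathione, was at 4.20, 1.90 and 3.53 CPM untreated and 10.2, 8.04 and 5.32 CPM with ACs (log2 fold change 1.28 ± 0.42, edgeR adjusted p = 0.393). Slc7a5, which imports large neutral amino acids, was at 5.78, 8.93 and 10.95 CPM against 9.42, 28.3 and 15.8 CPM, with overlapping groups (1.06 ± 0.41). With the GC and length offset Chac1 was at 0.89 and Slc7a5 at 0.58. The 250 bases before the start site of Chac1 are given because they hold TGATGCAA, letters of the composite C/EBP-ATF element, on the opposite strand (TTGCATCA, in capitals, 193 bases before the start site), from RefSeq (GRCm38.p6, chr2:119350992-119351241, plus strand).
Chac1: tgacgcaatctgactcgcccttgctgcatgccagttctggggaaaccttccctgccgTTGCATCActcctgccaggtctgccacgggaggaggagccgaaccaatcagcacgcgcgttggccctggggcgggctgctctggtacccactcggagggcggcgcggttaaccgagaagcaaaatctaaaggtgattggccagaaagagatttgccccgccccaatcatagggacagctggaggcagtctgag
On both strands of the 300-base windows, TGATGCAA was in 2 of the 22 genes of the list with a promoter in the table (9.09%), in 0.636% of tested genes and in 0.895% of all promoters.

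Genes of recognition and engulfment of apoptotic cells went in both directions. Of 36 tested genes 17 were higher and 19 lower, with 2 above (5.56%) and 4 below (11.1%) without overlap, beside 7.45% and 9.49% of all genes. Mertk, the kinase receptor of resting macrophages, was at 97.4, 115.6 and 67.1 CPM untreated and 156.7, 129 and 133 CPM with ACs (log2 fold change 0.58 ± 0.31). Its relative Axl was at 21.3, 82.2 and 64.4 CPM against 24.8, 88.0 and 66.6 CPM, again lowest in replicate 1 (0.10 ± 0.53). The bridging proteins Gas6, a ligand of both, and Pros1, a ligand of Mertk, were at -0.34 ± 0.29 and -0.79 ± 0.37 without overlap (-0.77 and -0.31 with the GC and length offset), with Pros1 at 6.73, 7.79 and 7.66 CPM untreated and 5.87, 4.02 and 3.03 CPM with ACs. Tgm2, a transglutaminase that acts as an integrin coreceptor, was at 367, 287 and 422 CPM against 489.5, 795 and 540.3 CPM (0.76 ± 0.34, and 0.25 with the GC and length offset). Cd47, the "do not eat me" signal, and Havcr2, a phosphatidylserine receptor, were at -0.46 and -0.88 without overlap. The scavenger receptor Cd36 was at 327, 284 and 308.5 CPM untreated and 382, 97.6 and 224 CPM with ACs, and Lrp1 at 278, 458 and 205 CPM against 264, 174 and 275 CPM, both with overlapping groups (-0.39 ± 0.42 and -0.40 ± 0.37). Tyro3, Timd4, Adgrb1 and Gulp1 were too low to test. No edgeR adjusted p of the list was under 0.393, and its median of -0.21 was 0.05 without replicate 1.

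Among LXR targets and cholesterol efflux genes, 11 of 23 were higher and 12 lower (median -0.07, and 0.05 with the size factors of DESeq2), with 3 above (13.0%) and 0 below without overlap (8 and 3 without replicate 1). The 3 were Fasn and Lpcat3, which make fatty acids and remodel phospholipids, and Srebf1, a transcription factor of lipogenic genes, all known LXR targets. Fasn, fatty acid synthase, was at 33.1, 31.2 and 49.9 CPM untreated and 62.8, 112.3 and 68.1 CPM with ACs (log2 fold change 1.09 ± 0.33, edgeR adjusted p = 0.393, and 0.49 with the GC and length offset). Nr1h2, which encodes LXR beta, was at 106.1, 105.6 and 241 CPM against 187, 399.9 and 297 CPM, with overlapping groups (0.96 ± 0.41, and 0.34 with the same offset). With libraries left out, Nr1h2 ranged from 0.48 to 1.64, the latter without untreated replicate 3. The groups of the cholesterol exporters overlapped. Abca1 was at 209, 188 and 118 CPM untreated and 173.7, 72.5 and 135.5 CPM with ACs (-0.43 ± 0.37), and Abcg1 at 64.3, 101.7 and 71.8 CPM against 75.1, 65.4 and 75.2 CPM (-0.14 ± 0.29). In cholesterol synthesis, 10 of 24 genes were higher and 14 lower, with 2 in each direction without overlap (8.33%). Sc5d, a late enzyme of the pathway, was at 22.4, 16.7 and 18.4 CPM untreated and 10.2, 7.83 and 8.81 CPM with ACs (-1.10 ± 0.30, and -0.64 with the offset). Idi1, which makes the isoprenoid unit dimethylallyl diphosphate, was at 4.99, 2.92 and 1.65 CPM against 1.59, 0.762 and 0.942 CPM (-1.55 ± 0.59, and -1.01 with the offset). Mvd and Pmvk, enzymes of the mevalonate steps, were at 0.77 and 0.65 without overlap, opposite in sign to Sc5d and Idi1.

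Most inflammatory genes were low or had overlapping groups. Of 30 cytokines, chemokines and enzymes, 11 were too low to test, among them Il6, Il12b, Nos2 and Ptgs2, and of the 19 tested 10 were higher and 9 lower, with 3 above (15.8%) and 1 below (5.26%) without overlap. Il27, an interleukin subunit of macrophages, had 6, 3 and 17 counts untreated and 32, 32 and 25 counts with ACs (0.475, 0.19 and 1.00 CPM against 3.92, 2.22 and 1.68 CPM). Its log2 fold change was 2.18 ± 0.69 (edgeR adjusted p = 0.393). With libraries left out, that of Il27 ranged from 1.70 to 3.28. Cxcl9, an interferon-induced chemokine, was at 2.77, 2.72 and 1.94 CPM against 1.22, 1.46 and 0.606 CPM (-1.18 ± 0.56, and -0.64 with the GC and length offset). Tnf was at 50.9, 32.3 and 37.2 CPM untreated and 60.9, 60.4 and 42.5 CPM with ACs, and Il1b at 5.86, 2.15 and 1.18 CPM against 1.22, 2.29 and 1.35 CPM, with overlapping groups in both. The list's median was 0.15 with all libraries and -0.15 without replicate 1. Of the immediate early and NF-kB feedback genes 17 of 28 were higher and 11 lower, with 2 above (7.14%) and 0 below without overlap. Jund, an AP-1 subunit, and Ier3, a stress-induced survival gene, had the smallest p-values (0.96 ± 0.42 and 0.84 ± 0.38), with overlapping groups. With libraries left out, Jund ranged from 0.62 to 1.68, the latter without untreated replicate 3. With the GC and length offset Jund was at 0.35 and the median of this list moved from 0.23 to -0.04. In Toll-like receptors and their signalling, 7 of 20 were higher and 13 lower, with 0 above (beside 7.45% of all genes) and 4 below (20.0%, beside 9.49%) without overlap. The NF-kB subunits Rela and Relb, at 1.02 ± 0.39 and 1.11 ± 0.42 with overlapping groups, stood against the receptors Tlr8, Tlr1 and Tlr3, at -0.80, -0.64 and -0.91 without overlap, and with the offset Rela and Relb were at 0.46 and 0.54.

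Anti-inflammatory and pro-resolving genes were split evenly, with 13 of 26 higher and 13 lower and 3 without overlap in each direction (11.5%). Beside Hpgd, Ppard, a lipid-sensing nuclear receptor linked to efferocytosis, was at 12.0, 11.3 and 12.2 CPM untreated and 18.0, 27.2 and 18.9 CPM with ACs (log2 fold change 0.85 ± 0.30, edgeR adjusted p = 0.393, and 0.30 with the GC and length offset). Tgfb1 was at 767, 651 and 1794 CPM against 1590, 2641 and 1909 CPM, so that untreated replicate 3 overlapped the treated group (0.94 ± 0.44). Il10 was at 6.02, 1.65 and 3.06 CPM against 4.53, 1.11 and 1.48 CPM (-0.63 ± 0.62), which is within its spread. Of 14 tested genes of alternative activation and tissue macrophages 3 were higher and 11 lower, with 1 in each direction without overlap (7.14%). These were the interleukin-4 receptor gene Il4ra, at 85.5, 71.6 and 108.5 CPM untreated and 114.2, 173.5 and 117.8 CPM with ACs (0.61 ± 0.31, and 0.22 with the offset), and Cd163, the hemoglobin scavenger receptor, at 1.90, 2.28 and 1.47 CPM against 0.856, 1.11 and 0.673 CPM (-1.09 ± 0.58). The median of that list was -0.37, and -0.06 with the GC and length offset.

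In the interferon response, 9 of 30 genes were higher and 21 lower, with 0 above and 2 below (6.67%) without overlap. Ifi204, an interferon-inducible DNA sensor with close paralogues that could share its reads, was at 93.1, 83.5 and 93.1 CPM untreated and 65.7, 26.9 and 42.2 CPM with ACs (log2 fold change -1.003 ± 0.340, edgeR adjusted p = 0.393). Ifit1, an inhibitor of viral RNA translation, was at 50.7, 32.4 and 24.4 CPM against 27.4, 14.5 and 13.5 CPM, with overlapping groups (-0.96 ± 0.37). With the GC and length offset the list's median moved from -0.18 to 0.08, and Ifi204 and Ifit1 were at -0.48 and -0.49. In antigen presentation, 6 of 10 genes were higher and 4 lower, with 0 without overlap, and the peptide-loading genes H2-DMb1 and H2-DMa were at 0.75 ± 0.39 and 0.59 ± 0.39 with overlapping groups. With the offset these were at 0.69 and 0.24, and the list's median moved from 0.19 to -0.02.

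Lysosomal genes were split, with 19 of 35 higher and 16 lower and 0 above and 3 below (8.57%) without overlap. The 3 were the proteases Ctsh and Ctss and the proton pump subunit Atp6v1a, at -0.63, -0.50 and -0.45. Tfeb and Tfe3, transcription factors of lysosome synthesis, were at 0.92 ± 0.37 and 0.86 ± 0.40 with overlapping groups, and at 0.28 and 0.46 with the GC and length offset. In LC3-associated phagocytosis and autophagy, 11 of 23 were higher and 12 lower, with 2 above (8.7%) and 1 below (4.35%) without overlap. Map1lc3a, an LC3 gene, was at 52.1, 32.4 and 77.0 CPM untreated and 84.5, 103.5 and 103.1 CPM with ACs (0.85 ± 0.34), whereas Atg12, part of the machine that attaches LC3 to membranes, was at 28.1, 29.6 and 24.6 CPM against 20.4, 10.6 and 15.0 CPM (-0.84 ± 0.31). With the offset these were at 0.32 and -0.41. Among NRF2 antioxidant and iron genes, 11 of 25 were higher and 14 lower, with 1 above (4.0%) and 2 below (8.0%) without overlap. Osgin1, an oxidative stress response gene, was at 29.1, 32.4 and 61.2 CPM against 67.0, 104.0 and 69.2 CPM (0.97 ± 0.35), and Keap1, the NRF2 inhibitor, at 0.80 ± 0.32 with overlapping groups, with 0.42 and 0.15 under the offset. The smallest edgeR adjusted p among the genes of these 3 lists was 0.393.

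In heat shock and chaperones, 8 of 16 genes were higher and 8 lower, with 1 above (6.25%) and 2 below (12.5%) without overlap. The 1 above was Hspa1b, an inducible HSP70 gene, at 3.80, 5.77 and 3.00 CPM untreated and 8.07, 6.10 and 33.2 CPM with ACs (log2 fold change 1.92 ± 0.61, edgeR adjusted p = 0.393). Replicate 3 alone set most of that difference, and the near-identical Hspa1a could share its reads. Hspa1b was called by edgeR without replicate 1 (2.28, adjusted p = 0.000487), where the library at 33.2 CPM is 1 of 2. The master regulator Hsf1 was at 0.86 ± 0.39 with overlapping groups, and at 0.43 with the GC and length offset. In the cell cycle, 12 of 28 were higher and 16 lower, with 0 above and 4 below (14.3%) without overlap. E2f1 and Plk1, which drive entry into S phase and mitosis, were at 0.73 ± 0.32 and 1.09 ± 0.47 with overlapping groups. Of 25 p53 targets and cell death regulators 9 were higher and 16 lower, with 1 above (4.0%) and 3 below (12.0%) without overlap. Ccng1, a p53 target, was at 61.0, 48.9 and 78.1 CPM untreated and 48.2, 23.3 and 33.0 CPM with ACs (-0.85 ± 0.34), and Casp4, the caspase that senses intracellular lipopolysaccharide, at 6.50, 6.08 and 5.65 CPM against 4.04, 2.70 and 3.63 CPM (-0.82 ± 0.37). With the offset, E2f1, Plk1, Ccng1 and Casp4 were at 0.22, 0.70, -0.30 and -0.24.

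Cytosolic ribosomal proteins were mostly lower, with 59 of 79 lower and 20 higher, although only 3 in each direction (3.8%, beside 7.45% above and 9.49% below of all genes) did not overlap. Without replicate 1, 44 lay below and 4 above without overlap, beside 32.4% and 24.1% of all genes. Rpl12 was at 2861, 1908 and 2834 CPM untreated and 1819, 669.5 and 713 CPM with ACs (log2 fold change -1.25 ± 0.44), and Rpl11 at 3833, 2001 and 2601 CPM against 2071, 675 and 701 CPM (-1.29 ± 0.48, overlapping). In both genes ACs-treated replicate 1 lay close to the untreated group and the other treated libraries far below it. The list's share of all counts was 10.4% to 13.1% untreated and 11.1%, 6.58% and 7.25% in ACs-treated replicates 1, 2 and 3. Pseudogenes of ribosomal proteins can share their reads. Nuclear-encoded genes of oxidative phosphorylation were split, with 28 of 67 higher and 39 lower and 4 above (5.97%) and 3 below (4.48%) without overlap. Sdhd, a subunit of complex II, was at 70.3, 49.0 and 48.9 CPM against 37.2, 29.2 and 29.3 CPM (-0.81 ± 0.29), and Ndufv1, of complex I, at 120.2, 103.9 and 219 CPM against 241.5, 332 and 289 CPM (0.96 ± 0.35, and 0.62 with the GC and length offset).

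All 8 tested mitochondrially encoded protein genes were lower, with 3 below (37.5%, beside 9.49% of all genes) and 0 above (beside 7.45%) without overlap (6 and 0 without replicate 1). mt-Nd6 was at 210.5, 168 and 133.6 CPM untreated and 118, 49.1 and 58.2 CPM with ACs (log2 fold change -1.19 ± 0.37, and -0.56 with the GC and length offset). It lies next to mt-Te on the same strand of the mitochondrial genome (GRCm38, MT:13552-14070 and MT:14071-14139). mt-Nd4, on the other strand, was at -0.55 ± 0.30, and at 0.24 with the offset, so its direction turned. Noncoding and nuclear-retained RNAs, examined as a sign of RNA type, had 3 of 10 higher and 7 lower, with 0 above and 2 below (20.0%) without overlap. These were Snhg5 and Gas5, host transcripts of small nucleolar RNAs. Snhg5 was at 3.01, 2.54 and 1.18 CPM against 0.979, 0.832 and 0.337 CPM (-1.66 ± 0.65). Neat1, the scaffold of paraspeckles, overlapped, at 325, 310.0 and 177 CPM against 184, 81.7 and 160.0 CPM (-0.93 ± 0.38). The part of RNA quality and GC content in these results was not tested beyond the offset.

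The summed markers of every other cell type examined overlapped between the groups. In bulk RNA, fewer cells of a type and less RNA per cell cannot be told apart. The 13 granulocyte markers summed to 333 to 1472 CPM untreated and 636 to 1122 CPM with ACs, with 12 tested and 0 without overlap. The 10 fibroblast markers summed to 10.1, 191.5 and 119.1 CPM untreated and 14.2, 309.5 and 177.8 CPM with ACs, lowest in replicate 1 of both groups. Of 16 erythroid genes, mouse counterparts of genes that K562 cells express, 15 were in the files, 4 could be tested, and Rhag was at 0 in all 6 libraries. Their sum was 15.1, 19.96 and 19.6 CPM untreated and 13.1, 23.1 and 66.5 CPM with ACs, where Hba-a1 alone gave 42.4 CPM in replicate 3. B cell markers summed to 20.3 to 50.5 CPM and 19.6 to 70.4 CPM, and Trac and Gzma, of T or NK cells, and Mcpt4, of mast cells, were at 0 in all 6 libraries. Of the 12 macrophage markers 5 were higher and 7 lower (median log2 fold change -0.42), 2 of them below without overlap (16.7%). These were Ctss, at -0.50, and Aif1, an actin-binding protein of macrophages, at 98.5, 93.5 and 96.0 CPM untreated and 70.8, 60.7 and 51.5 CPM with ACs. The part of these cells in the results above was not tested.

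The NACs libraries of the same label were compared with the same 3 untreated libraries, so their values and those of ACs are not independent and are given side by side. With NACs, 1015 of 11912 genes (8.52%) were called against untreated by edgeR, 499 of them higher, and this count was 0 with the GC and length offset. It ranged from 21 without NACs replicate 1 to 4232 without NACs replicate 2. Against NACs, ACs-treated macrophages differed in 0 of 11844 genes (0%), with 493 at an unadjusted p under 0.05 and 0 by DESeq2 and limma-voom. Hpgd was at -1.74 with ACs and -1.31 with NACs, each against untreated, and at -0.38 for ACs against NACs (edgeR adjusted p = 0.923). Hk2 was at 1.21 with ACs and 0.62 with NACs, Srm at 1.04 and 0.96, Fasn at 1.09 and 0.97, and Chac1 at 1.28 and 0.66. Mertk had opposite signs, 0.58 and -0.65, as did Cxcl9, -1.18 and 0.80. Neither was called for ACs against NACs, where the smallest edgeR adjusted p of any gene was 0.898. The medians of the lists were 0.39 and 0.73 for glycolysis, 0.26 and 0.42 for polyamine metabolism, 0.31 and 0.69 for the ATF4 list, -0.12 and 0.73 for the cell cycle and -0.12 and 0.48 for nuclear-encoded oxidative phosphorylation. With the GC and length offset, the ACs median was 0.04 for the cell cycle and -0.04 for nuclear-encoded oxidative phosphorylation. The median of all genes tested was then -0.02. The difference of the AC response between genotype labels was tested as an interaction over 12 libraries, and 0 of 13225 genes (0%) passed edgeR's test, with 3187 at an unadjusted p under 0.05. limma-voom called 0 and the Wald test of DESeq2 1225 (9.26%), so the count depended on the test. Without WT untreated replicate 3 or KO ACs replicate 3, edgeR called 471 and 1100 genes for it.

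**Figure D5:**
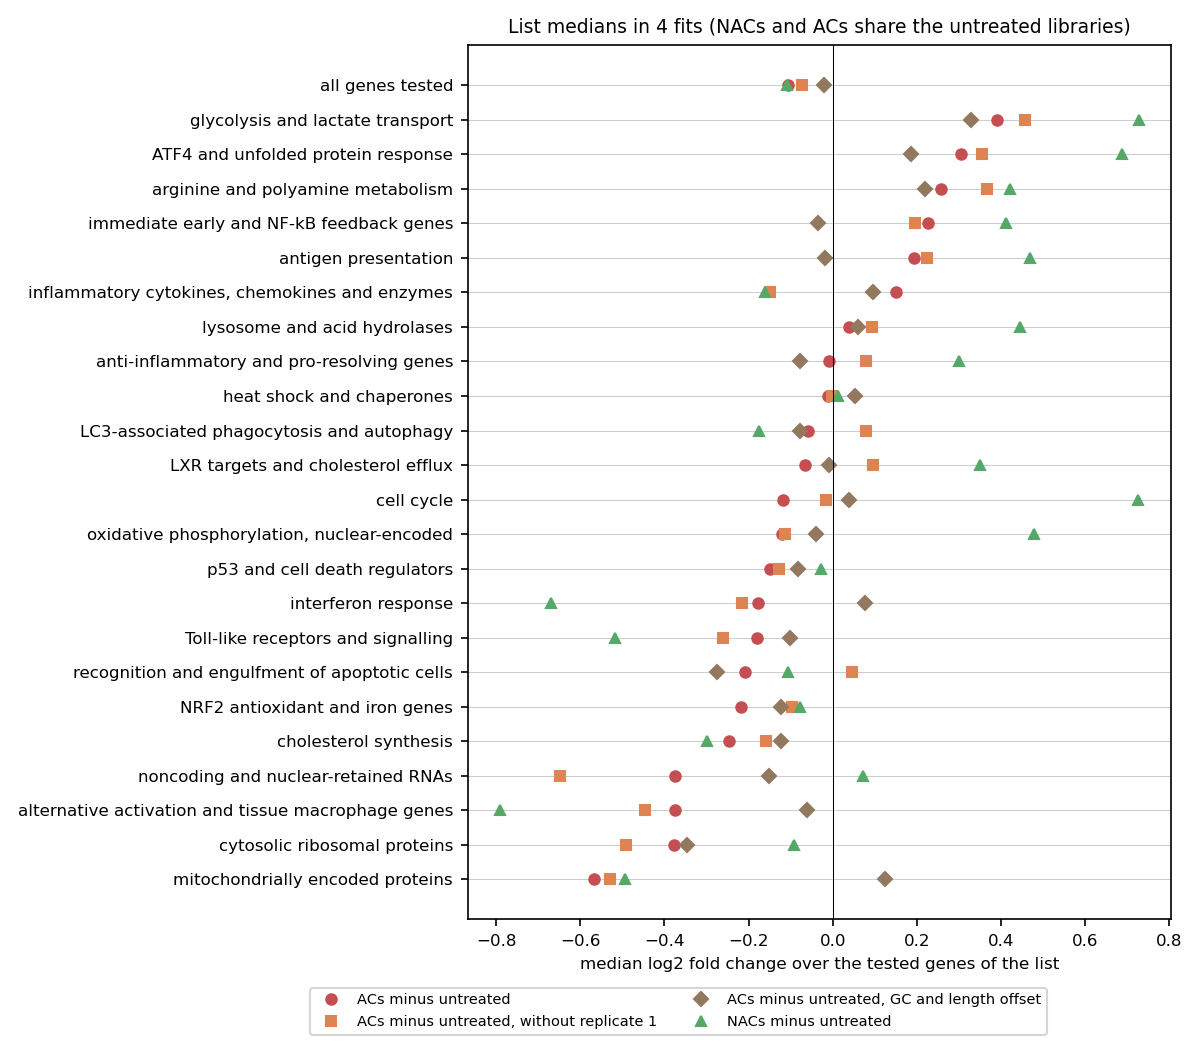
Median log2 fold change of the tested genes of each list for ACs minus untreated (circles), the same without replicate 1 (squares) or with the GC and length offset (diamonds), and NACs minus untreated (triangles). Glycolysis, the ATF4 list and polyamine metabolism lie right of 0 in all 4, and the mitochondrially encoded proteins move from -0.57 to 0.12 with the offset.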

How the data were processed

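RNA of BMDMs was sequenced as paired reads after a NEBNext Ultra II library preparation. Alignment to the mouse genome and counting on genes were done by the authors. The submitters' processing notes name Trimmomatic 0.36, STAR 2.5.2b, featureCounts, Subread 1.5.2 and GRCm38. The deposited values are whole counts for 49315 Ensembl genes, not normalized, and the strand setting is not given in the sources used here. Symbols and positions came from GENCODE M21, which holds 48970 of these genes, 44772 of them with the same start and end. Single exons were not analysed here.

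Groups came from the sample titles. Low genes were dropped with filterByExpr at a minimum count of 10 and a minimum total of 15, library totals were scaled by TMM, and glmQLFit with robust dispersions and glmQLFTest of edgeR 4.0.16 (R 4.3.3) were fitted on the 6 libraries, with Benjamini-Hochberg adjustment and a threshold of 0.05. ACs against NACs and NACs against untreated used 6 libraries each, and the interaction 12. SE is the log2 fold change over the root of the F statistic. Alternatives were DESeq2 1.42.0 (its size factors and its Wald test), limma-voom (limma 3.58.1), library totals alone, no filter, a stricter filter (10 counts or more in each library), a single fit of all 18 libraries, a replicate block, a GC and length offset (mgcv 1.9.3), block and offset together, an absolute log2 fold change over 1 and libraries left out. The tests were checked on simulated counts, drawn independently for each library. These held neither the shared deviation of the replicate 1 libraries nor the GC difference between the groups, and no result here rests on them. The common dispersion of the 6 libraries in edgeR was 0.131, a biological coefficient of variation of 0.362.

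Named genes were Hdac3 and Cd5l, for each list its called genes or, with none, the 2 with the smallest p, and in each direction the 6 genes with the smallest p, since none passed. The rule took genes for ACs against NACs and for the interaction only from called genes, so it gave none there. Further list members were chosen after their values were seen. The comparison, the lists and the named-gene rule were chosen with earlier results of these data known. The study gives 3 animals per group, and the labels do not say which libraries share an animal. The comparisons were therefore fitted as between animals, without knowing whether the conditions share them. Some genes of the lists are not reported here by name.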

Additional observations from a re-analysis of the deposited data

How the results depend on the processing

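For ACs against untreated the count of called genes was 0 with edgeR, its filter and no replicate block. It was 5 with the Wald test of DESeq2, 13 with no filter, 53 with the replicate block, 87 with the GC and length offset together with the replicate block, and between 0 and 92 over the settings that left out a library or a replicate number, where only leaving out replicate 1 of both groups gave more than 0. It stayed at 0 with DESeq2 size factors, with library totals alone, with limma-voom, with the stricter count filter, with a single fit of all 18 libraries, with the GC and length offset alone, and with an absolute log2 fold change over 1. The deviations of same-numbered libraries from their group means correlated at 0.58, 0.06 and 0.08, so the numbers were not taken to pair the libraries, and the 53 calls with the replicate block are a hint only. Among the named genes, the replicate block called mt-Te, Rps19-ps6, Hpgd, 1110019D14Rik, Pcx, Gm4366, 9430060I03Rik, Trim12c, 2010001A14Rik, Gm8730, 3010003L21Rik and Hspa1b, and only the offset and replicate block together called Hk2 (1.08, adjusted p = 0.0345), Paox (1.02, 0.0449), Rpl11 (-1.59, 0.00764) and Rpl12 (-1.58, 0.0101), with Rpl13a, Rpl14, Rpl35, Rpl36 and Rps10 also lower. For NACs against untreated the count of 1015 became 0 with library totals alone, 1679 with the Wald test of DESeq2, 1717 with limma-voom, 454 with no filter, 0 with all 18 libraries, 1784 with the replicate block, 0 with the GC and length offset, 14 with the offset and replicate block, and 21 to 4232 with libraries left out (27, 32 and 21 without untreated replicates 1 and 2 and NACs replicate 1, and 4232 and 46 without NACs replicates 2 and 3; 33, 1537 and 293 without replicate number 1, 2 and 3). For ACs against NACs the count of 0 became 47 with no filter and ranged from 0 to 2 with libraries left out. For the interaction the count of 0 became 1225 with the Wald test of DESeq2, 140 with no filter, and 0 to 1100 with libraries left out (471 without WT untreated replicate 3 and 1100 without KO ACs replicate 3). The log2 fold change of Hdac3 reversed to 0.19 with limma-voom, 0.11 with the replicate block, 0.041 with the GC and length offset, and 0.28 with both, and ranged from -0.65 to 0.52 with libraries left out. That of Cd5l ranged from -0.87 to 0.34 with libraries left out, and that of mt-Nd4 reversed to 0.24 with the offset and 0.14 with the offset and replicate block. The other 56 named genes kept their direction under every alternative run. The causes of these changes were not tested. Depth limits genes such as Il27 and 1110019D14Rik, with few counts in a library. The counts of genes without overlap with replicate 1 left out were added after the data were seen.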
